A study of Mus musculus with 12 samples.

Results

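Genes of DNA replication and of mitosis were followed in the livers of Mdr2-knockout mice, a mouse model of hepatocellular carcinoma. The members are 39 named genes, and every probe set whose only gene symbol, current or earlier, is one of them was taken. This gave 69 of 22626 probe sets and 38 of the 39 genes. Of these, 34 probe sets read 17 replication genes and 35 read 21 mitosis genes, while cyclin Ccnb1 had no probe set of its own. A further probe set that names both Tyms and its pseudogene Tyms-ps lies outside the rule. It read -0.09 at 3 months and 0.34 at 12 months as knockout minus heterozygous log2 fold change, and passed no test.

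Liver RNA of 12 male mice was measured with 1 Affymetrix array per mouse and 3 mice in each group. KO_3M and Het_3M are Mdr2-knockout and heterozygous control mice of 3 months, and KO_12M and Het_12M are the same genotypes at 12 months. The controls thus carry a disrupted Mdr2 allele too, no wild type mice are among the samples, and the sources used here do not name the strain. Mdr2, now Abcb4, moves phosphatidylcholine from hepatocytes into bile, and its loss is known to lead to inflammation around the bile ducts and later to liver tumours. The RNA is of bulk liver, in which fewer cells of a type and less RNA per cell cannot be told apart, and nothing in the labels says whether a tumour was sampled at 12 months.

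Adult hepatocytes are mostly quiescent, and a liver enters the cell cycle again after injury or loss of tissue. In S phase the Mcm helicase opens the DNA, the clamp Pcna holds the polymerases on it, and the enzymes of nucleotide synthesis supply the building blocks. In mitosis, Cdk1 with its cyclins starts the division, kinesins and the kinases Aurka and Plk1 build the spindle, and the checkpoint holds back Cdc20 until every chromosome is attached. E2F transcription factors drive the genes of the first set, and the DREAM and MuvB complexes act on the second through CHR elements.

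Each value below is a MAS 5.0 signal, an intensity on a linear scale that grows with the RNA bound by a probe set. Fold changes are differences between group means of log2(signal + 16), where 16 is an offset, and ± gives limma's standard error beside a fold change and the SD beside a mean signal (n = 3 mice). A probe set passed where its p, adjusted by Benjamini and Hochberg over all 22626, was under 0.05. All adjusted p values are from limma, in a single fit of the 12 arrays. Signals of different probe sets depend on their probes and were not compared with each other.

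Abcb4 itself averaged 321 ± 56.8 in KO_3M and 723 ± 43.0 in Het_3M, and 290 ± 44.5 in KO_12M and 623 ± 45.8 in Het_12M. Its log2 fold change was -1.15 at 3 months and -1.07 at 12 months, and no knockout array reached a heterozygous one at either age. The sources used here do not say whether its probe set lies in the disrupted stretch. Scanning took 3 sessions, and at neither age were both genotypes scanned in 1 session. The actin 3′ to 5′ ratio, a measure of RNA integrity, averaged 4.92 ± 1.59 in KO_3M, 7.0 ± 1.64 in Het_3M, 2.79 ± 0.44 in KO_12M and 3.64 ± 0.56 in Het_12M. Mouse 3 of KO_12M stood apart at the dim end, with a 10th percentile signal of 9.4 against 4.1 to 6.5 on the other arrays. The source label of mouse 1 of KO_3M and of mouse 1 of Het_3M gives 12 months while their titles give 3 months, and the titles were followed. Over all probe sets 44.5% of calls at 3 months were higher in knockout (67.9% under median scaling) and 65.3% at 12 months (55.1%). For 12 against 3 months, 67.0% of calls were higher in knockout livers, 13.5% under median scaling and 42.5% under quantile normalization. In heterozygous livers it was 75.4%, and 64.9% under median scaling. Of the interaction calls 48.8% were positive, 9.55% under median scaling and 33.3% under quantile normalization. Against the main scaling, median scaling moved the median of all probe sets from -0.08 to 0.03 for the knockout effect at 3 months, from 0.15 to -0.07 for 12 against 3 months in knockout livers and from 0.12 to -0.07 for the interaction.

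Many of the members were dim, as is usual for genes of dividing cells in whole liver. Among replication probe sets 19 of 34 reached the median of their own array on at least 3 arrays and 7 reached it on none. For mitosis probe sets these counts were 14 of 35 and 15. No filter on low signals was applied in the main test, so that every probe set was tested in whichever group it was high. Where a signal is near the offset of 16, the offset decides the size of the log2 fold change.

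At 3 months, most of the replication genes read higher in knockout livers, led by the Mcm helicase genes. Of 34 replication probe sets, 15 rose and 1 fell, against 6.13% higher and 7.66% lower over all probe sets tested. The rises fell on 11 genes: Mcm2, Mcm3, Mcm4, Mcm5, Mcm6, Mcm7, Pcna, Prim1, Rfc4, Rrm1 and Rrm2. The fall was that of cyclin Ccne1. The median log2 fold change was 0.82 over these probe sets and -0.08 over all.

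Some mitosis genes rose at 3 months, while most did not pass. Of 35 mitosis probe sets, 9 rose and 2 fell, against the same 6.13% and 7.66% over all. Those that rose belong to Top2a, Ccnb2, Cdk1, Birc5, Mki67, Plk1, Cdc20, Kif20a and Stmn1. The falls were those of a probe set of Kif11 and of a dim probe set of Top2a, whose brighter probe set rose. The median was 0.13 over the 35 probe sets. The 11 calls became 6 without mouse 2 of KO_3M and 7 without mouse 2 of Het_3M.

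At 12 months the largest rises in knockout livers, by log2 fold change, were those of the mitosis genes Birc5 (1.65) and Cdc20 (1.58) and of the replication genes Rrm1 (1.57) and Mcm5 (1.31), with Top2a (1.38) between the last 2. Of 34 replication probe sets, 5 rose (of Rrm1, Rrm2, Mcm5 and Mcm6) and 1, of Tk1, fell, against 3.46% higher and 1.83% lower over all. The 6 calls became 2 without mouse 3 of KO_12M or without mouse 1 or mouse 2 of Het_12M, and 3 without mouse 2 of KO_12M. Of 35 mitosis probe sets, 9 rose (of Birc5, Cdc20, Top2a, Cdk1, Ccnb2, Mki67, Kif20a and Stmn1) and 0 fell. The medians were 0.46 and 0.27, against 0.03 over all probe sets. Both knockout comparisons have their own control mice, so their values for a gene can be read side by side. The difference between them was tested by the interaction, which called 0 members.

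Counted by the brightest probe set of each gene, 8 of 17 replication genes rose and 1 fell at 3 months (6.71% and 8.3% of 12393 genes, by the same fit), and 8 of 21 mitosis genes rose and 0 fell. At 12 months it was 4 and 1 of 17, and 8 and 0 of 21 (4.06% and 2.35%). The plot of the knockout effect at both ages shows these genes.

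**Figure D1:**
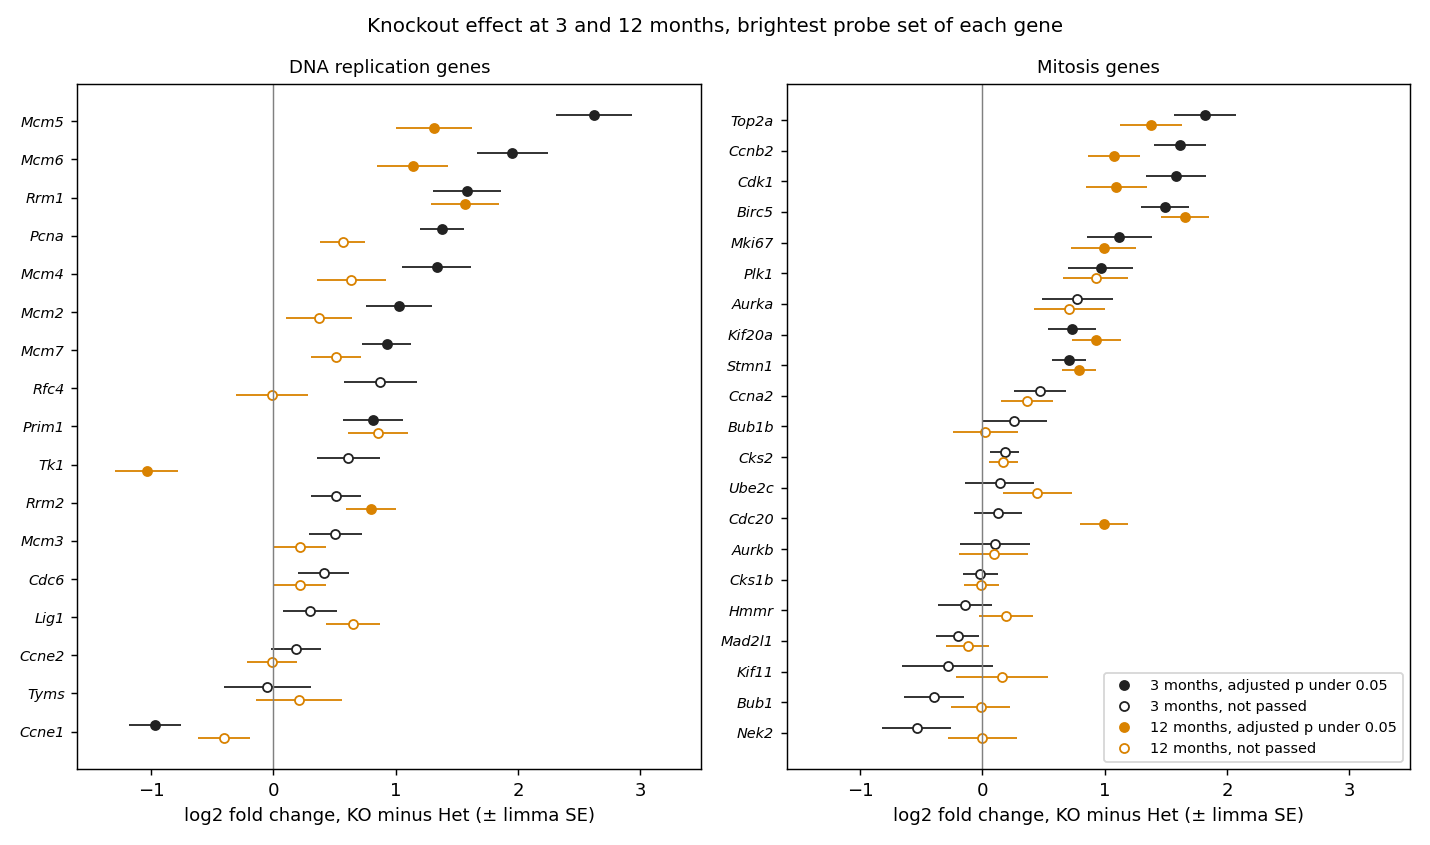
Log2 fold change, KO minus Het, of the brightest probe set of 17 replication genes (left) and 21 mitosis genes (right), at 3 months (black) and 12 months (orange), with limma standard errors. Filled points have an adjusted p under 0.05. Mcm5 and Mcm6 lie farthest right at 3 months, Tk1 lies left of 0 only at 12 months, and Top2a, Ccnb2, Cdk1 and Birc5 are filled at both ages.

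The 6 genes of the Mcm2 to Mcm7 helicase, which is loaded at origins and unwinds DNA ahead of the fork, were read by 16 probe sets. At 3 months 9 of these rose, at least 1 for each of the 6 genes, and 0 fell, with a median of 0.97. Of the 16, 14 were positive under the main scaling, under median scaling and under quantile normalization. At 12 months 2 of the 16 rose, with a median of 0.47, and 15 were positive (14 under either other scaling).

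Mcm6 gave the largest fold change of all members. Its probe set 1416251_at read 137, 254 and 152 in KO_3M, against 5.2, 2.3 and 2.7 in Het_3M. At 12 months it read 7.3, 54.3 and 17.7 in KO_12M, against 2.8, 2.5 and 3.7 in Het_12M. All 3 knockout arrays lay above all heterozygous arrays at both ages, and the younger knockout livers lay far above the older ones. The log2 fold change was 3.30 ± 0.34 at 3 months (adjusted p = 4.01e-05) and 1.00 ± 0.34 at 12 months (adjusted p = 0.113). With the heterozygous signals below the 10th percentile of their arrays, the 3 month value ran from 1.83 to 4.61 between offsets of 64 and 4. The other Mcm6 probe set, 1438852_x_at, read 55.8, 85.8 and 50.6 in KO_3M and 7.4, 0.8 and 5.3 in Het_3M. Its older arrays gave 52.0, 41.4 and 49.1 in KO_12M, against 18.6, 1.8 and 22.6 in Het_12M. Here the knockout signals were alike at both ages, with changes of 1.95 ± 0.29 (adjusted p = 0.000726) and 1.14 ± 0.29 (adjusted p = 0.0337). The 12 month call was lost under quantile or median scaling, with an offset of 4, without any 1 mouse of KO_12M and without mouse 1 or mouse 2 of Het_12M.

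Mcm5 followed the same order. It read 118, 173 and 75.1 in KO_3M, against 3.4, 7.6 and 5.6 in Het_3M. The older mice gave 33.8, 23.1 and 70.3 in KO_12M and 8.0, 6.5 and 4.3 in Het_12M. Neither pair of groups overlapped, and mouse 3 of KO_12M came close to the lowest KO_3M array. The rise was 2.62 ± 0.31 at 3 months (adjusted p = 0.000133, 1.39 to 3.67 between offsets of 64 and 4) and 1.31 ± 0.31 at 12 months (adjusted p = 0.0224). The 12 month call was lost with an offset of 64 (0.57), without mouse 3 of KO_12M and without any 1 mouse of Het_12M.

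Mcm2 was read by a pair of probe sets that agreed in direction. The dimmer, 1448777_at, read 82.5, 106 and 74.4 in KO_3M and 21.3, 7.1 and 7.2 in Het_3M. Its older arrays read 35.4, 46.6 and 38.2 in KO_12M and 21.7, 17.9 and 35.0 in Het_12M, where the lowest knockout array barely cleared the highest heterozygous one. The rise was 1.92 ± 0.26 at 3 months (adjusted p = 0.000331, 1.00 to 2.63 between offsets of 64 and 4), and the 12 month value of 0.47 ± 0.26 did not pass. The brighter probe set, 1434079_s_at, rose by 1.03 ± 0.27 at 3 months. Both probe sets of Mcm4 rose at 3 months, by 1.34 ± 0.28 and 1.01 ± 0.31, and stood at 0.64 and 0.30 at 12 months without passing.

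The probe sets of Mcm3 and Mcm7 disagreed within each gene. For Mcm3, 1449705_x_at read 71.7, 91.1 and 79.2 in KO_3M, against 26.1, 21.1 and 29.1 in Het_3M, and rose by 1.22 ± 0.25 (adjusted p = 0.00543). At 12 months it read 77.7, 84.2 and 151 in KO_12M and 71.2, 45.7 and 68.3 in Het_12M, without passing (0.60 ± 0.25). Its name ends in x, which on these arrays marks probes that may bind related sequences. A second Mcm3 probe set, 1420029_at, read 31.7, 30.2 and 24 in KO_3M and 44.7, 40.6 and 36.8 in Het_3M. At the older age it read 15.2, 41.3 and 65.3 in KO_12M and 60.6, 35.6 and 52.5 in Het_12M. Its 3 month change of -0.35 ± 0.31 did not pass, although the groups did not overlap. The other probe sets of Mcm3 stood at 0.51, 0.84 and 0.07 at 3 months, so the gene counts as risen by 1 of 5 probe sets.

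For Mcm7, the brightest probe set 1438320_s_at read 415, 475 and 293 in KO_3M, against 199, 214 and 177 in Het_3M. Older arrays read 224, 239 and 193 in KO_12M, against 126, 119 and 212 in Het_12M, where the groups overlapped. It rose by 0.93 ± 0.20 at 3 months (adjusted p = 0.00843), and its 12 month value was 0.51 ± 0.20. Its fellow 1439269_x_at read 72.1, 70.1 and 62.5 in KO_3M and 77.5, 92.6 and 72.2 in Het_3M, a change of -0.20 ± 0.18. At 12 months that probe set read 59.4, 66.4 and 49.8 in KO_12M and 57.1, 56.4 and 59.2 in Het_12M. The remaining Mcm7 probe sets stood at 0.53 and 0.31 at 3 months without passing.

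**Figure D2:**
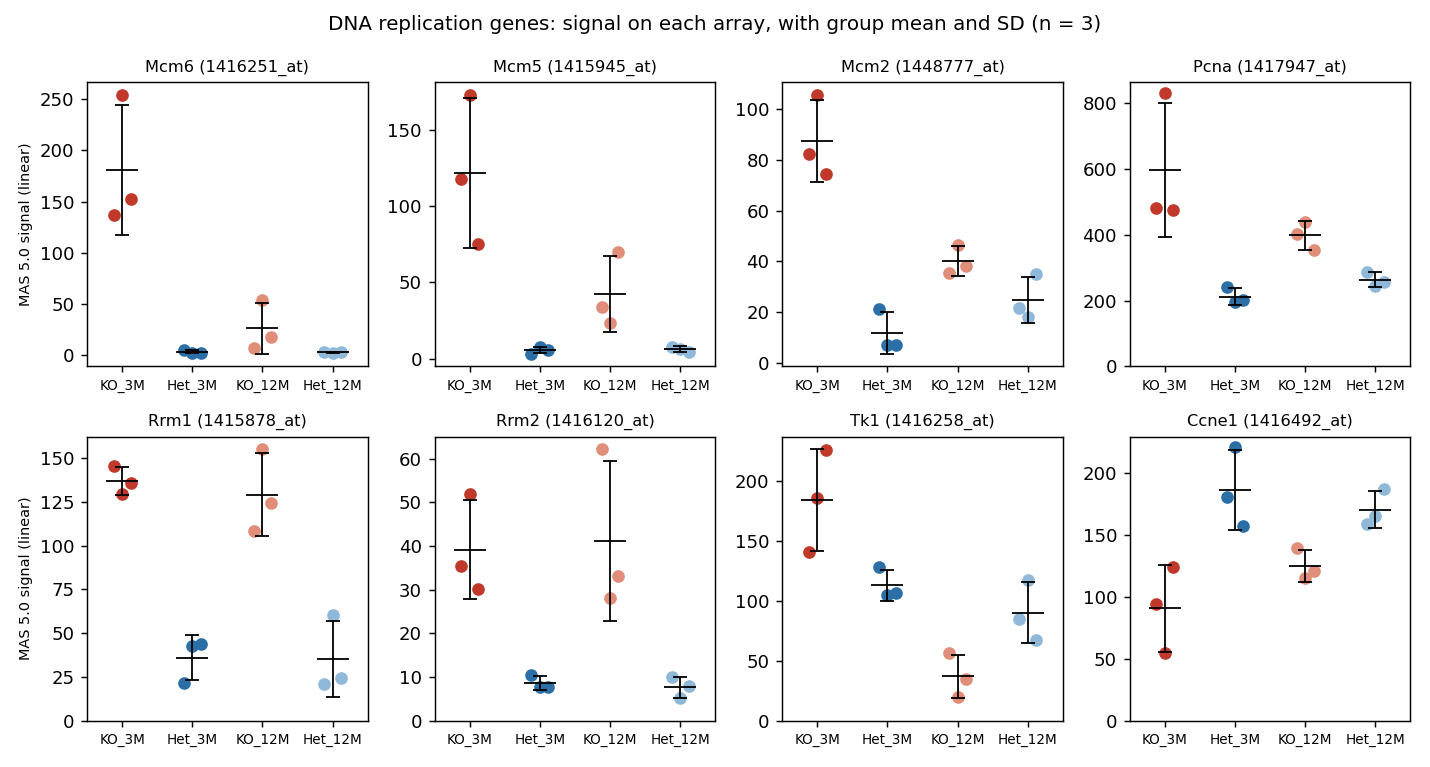
MAS 5.0 signal (linear axis) of 8 replication genes on each of the 12 arrays, by group, with the group mean and SD (n = 3 mice). Each gene is drawn by its probe set of smallest adjusted p (limma) over both knockout comparisons. For Mcm6, Mcm2 and Rrm2 that is not the brightest probe set. Mcm6, Mcm5, Mcm2 and Pcna are highest in KO_3M, Rrm1 and Rrm2 are alike in KO_3M and KO_12M and low in both heterozygous groups, Tk1 is highest in KO_3M and lowest in KO_12M, and Ccne1 is lower in KO_3M than in Het_3M.

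Promoter windows of the members were read to show what sequence lies before the genes that moved together. Each window holds 250 bases before and 50 after a start of transcription, 300 in all, taken from RefSeq on GRCm38.p6 and printed 5′ to 3′ along the gene. A window was found for 15 of 17 replication genes and 17 of 21 mitosis genes, with none for Mcm4, Ccne2, Ccna2, Aurkb, Stmn1 and Kif20a. The searched letters, on both strands, were an E2F octamer (any of TTTCCCGC, TTTGGCGC, TTTCGCGC and TTTGCCGC), the CHR hexamer TTTGAA and the CCAAT box CCAAT. Capitals mark every match, and matches of the octamers can overlap each other. Mcm6 and Mcm5 are shown as the members of largest rise, and Tk1 as the member whose groups lay apart in opposite directions at the 2 ages, a difference that did not pass the interaction test.
Mcm6 promoter (GRCm38.p6 chr1:128359656-128359955, minus strand): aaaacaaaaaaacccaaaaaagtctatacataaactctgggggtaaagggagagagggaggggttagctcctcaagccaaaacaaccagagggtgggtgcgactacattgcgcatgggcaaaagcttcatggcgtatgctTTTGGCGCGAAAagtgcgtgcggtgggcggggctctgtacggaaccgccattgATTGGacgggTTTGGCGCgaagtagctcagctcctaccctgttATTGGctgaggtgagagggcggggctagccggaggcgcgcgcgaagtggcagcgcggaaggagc
Mcm5 promoter (GRCm38.p6 chr8:75109259-75109558, plus strand): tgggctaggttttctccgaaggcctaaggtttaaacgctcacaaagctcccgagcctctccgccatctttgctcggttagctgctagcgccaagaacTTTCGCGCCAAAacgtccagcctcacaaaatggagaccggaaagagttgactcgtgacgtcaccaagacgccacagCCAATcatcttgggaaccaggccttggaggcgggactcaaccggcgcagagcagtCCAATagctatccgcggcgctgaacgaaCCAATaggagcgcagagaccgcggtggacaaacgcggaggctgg
Tk1 promoter (GRCm38.p6 chr11:117825965-117826264, minus strand): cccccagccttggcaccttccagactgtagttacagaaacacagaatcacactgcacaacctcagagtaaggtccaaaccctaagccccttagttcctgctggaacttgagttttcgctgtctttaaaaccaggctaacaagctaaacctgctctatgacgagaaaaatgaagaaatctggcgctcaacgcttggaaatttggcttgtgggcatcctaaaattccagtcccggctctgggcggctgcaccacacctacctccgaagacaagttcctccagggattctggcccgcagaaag

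In Mcm6 the E2F octamer matched at 110, 106 and 47 bases before the start, the first 2 matches overlapping on opposite strands, and in Mcm5 at 153 and 149 bases before it, again as an overlapping pair. The Tk1 window held none of the searched letters. Among replication genes 6 of 15 had an E2F octamer (Mcm3, Mcm5, Mcm6, Mcm7, Lig1 and Cdc6), which is 40.0%, against 4.07% of 9888 measured genes. The CHR hexamer was in 1 of 15 (Mcm2), or 6.67%, against 15.4%, and the CCAAT box in 9 of 15, or 60%, against 42.3%. Lig1 and Cdc6, which hold the octamer, did not pass in either knockout comparison, and Rrm1, Pcna and Mcm2, which do not, rose at 3 months. A match is a description of the letters and was not tested as a site.

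Pcna, the sliding clamp of the polymerases, read 482, 831 and 476 in KO_3M, against 241, 196 and 200 in Het_3M. The older livers gave 403, 440 and 353 in KO_12M and 288, 245 and 258 in Het_12M. The groups did not overlap at either age, and mouse 2 of KO_3M stood well above its fellows. The rise was 1.38 ± 0.18 at 3 months (adjusted p = 0.000263), and 0.57 ± 0.18 at 12 months did not pass (adjusted p = 0.093). Of the other fork genes, the primase subunit Prim1 rose at 3 months by 0.81 ± 0.24 in its brighter probe set, with 0.86 ± 0.24 at 12 months at an adjusted p of 0.0603. The clamp loader subunit Rfc4 rose at 3 months by 1.26 ± 0.26 in its dimmer probe set and not in the brighter one (0.87 ± 0.30). The ligase Lig1 stood at 0.30 and 0.65 and did not pass.

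Rrm1, the large subunit of ribonucleotide reductase, rose by nearly the same amount at both ages. Its brighter probe set 1415878_at read 145, 129 and 136 in KO_3M, against 21.4, 42.7 and 44.0 in Het_3M. It read 108, 155 and 124 in KO_12M, against 21.1, 60.5 and 24.3 in Het_12M. Every knockout array lay above every heterozygous one, with changes of 1.59 ± 0.28 (adjusted p = 0.00217) and 1.57 ± 0.28 (adjusted p = 0.00382). The difference between the ages, the interaction, was -0.02 ± 0.39. The second probe set rose at 3 months by 0.92 ± 0.28 and stood at 0.53 ± 0.28 at 12 months.

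Rrm2, the small subunit whose level in other cells follows S phase, was read by 3 probe sets. The dim 1416120_at read 35.4, 51.9 and 30.1 in KO_3M, against 10.5, 7.7 and 7.6 in Het_3M, and 62.2, 28.1 and 33.2 in KO_12M, against 9.9, 5.2 and 7.9 in Het_12M. No knockout array came near a heterozygous one, and the changes were 1.15 ± 0.24 (adjusted p = 0.00666) and 1.23 ± 0.24 (adjusted p = 0.00723, 0.54 to 1.90 between offsets of 64 and 4). The brightest, 1434437_x_at, read 130, 149 and 93.3 in KO_3M and 77.9, 81.6 and 83.7 in Het_3M. In KO_12M it read 98.1, 106 and 134 and in Het_12M 66.5, 42.2 and 65.9. It passed at 12 months (0.80 ± 0.20, adjusted p = 0.0337) and not at 3 months (0.51 ± 0.20), and the 12 month call was lost under median scaling and without any 1 of the 6 mice of 12 months. The third stood at 0.44 and 0.46.

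Tk1, the thymidine kinase of the salvage route in cycling cells, was the member whose knockout arrays lay above the heterozygous arrays at 1 age and below them at the other. It read 141, 186 and 226 in KO_3M, against 128, 105 and 107 in Het_3M, and 56.3, 20.0 and 34.6 in KO_12M, against 84.7, 118 and 67.7 in Het_12M. The 3 month groups were close without overlap, and the 12 month groups likewise in the other order. The change of 0.61 ± 0.26 at 3 months did not pass (adjusted p = 0.13), and Tk1 fell by 1.03 on the log2 scale at 12 months (± 0.26, adjusted p = 0.0305). Without mouse 2 or mouse 3 of KO_12M, or mouse 1 or mouse 2 of Het_12M, the 12 month fall no longer passed, nor did it with an offset of 64 (-0.61).

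Ccne1, the cyclin that takes cells into S phase, read 94.0, 54.4 and 125 in KO_3M, against 181, 221 and 157 in Het_3M. The older livers read 139, 115 and 121 in KO_12M, against 159, 165 and 188 in Het_12M. Knockout arrays lay below heterozygous arrays at both ages, with -0.96 ± 0.21 at 3 months (adjusted p = 0.0094) and -0.40 ± 0.21 at 12 months, which did not pass. With the actin ratio as a covariate the 3 month change was -0.64 and no longer passed. Ccne2 stood at 0.19 and -0.01. The loading factor Cdc6 was dim, from 1.6 to 24.9 over the 12 arrays, and stood at 0.41 and 0.22. None of the 3 probe sets of thymidylate synthase Tyms passed, with changes from -0.20 to 0.51 at 3 months.

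Mitosis genes with a rise were mostly read at low signals in heterozygous livers. Top2a, the topoisomerase that untangles sister chromosomes, read 55.2, 75.1 and 58.0 in KO_3M in its brighter probe set 1454694_a_at, against 2.9, 15.4 and 2.4 in Het_3M. The older arrays read 59.5, 52.9 and 58.6 in KO_12M, against 15.3, 5.9 and 16.3 in Het_12M. The knockout signals were alike at both ages, and every one lay far above every heterozygous signal. The changes were 1.82 ± 0.26 (adjusted p = 0.000448, 0.84 to 2.80 between offsets of 64 and 4) and 1.38 ± 0.26 (adjusted p = 0.00523). The dim Top2a probe set 1427724_at read 3.2, 3.6 and 3.4 in KO_3M and 7.7, 10.7 and 13.3 in Het_3M. In KO_12M it read 5.9, 7.0 and 10.5 and in Het_12M 11.7, 6.6 and 6.5. Its 3 month change of -0.45 ± 0.14 passed (adjusted p = 0.0442) but was lost under quantile normalization, an offset of 64, no intensity trend, either block and without mice of any group, any 1 mouse of KO_3M among them.

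Ccnb2, a B-type cyclin of Cdk1, read 38.9, 51.8 and 61.3 in KO_3M, against 3.9, 5.7 and 7.1 in Het_3M. It read 42.7, 35.8 and 26.2 in KO_12M, against 11.5, 8.4 and 4.4 in Het_12M. No arrays overlapped, and Ccnb2 rose by 1.62 ± 0.21 (adjusted p = 0.000276) and by 1.08 ± 0.21 (adjusted p = 0.00812). Cdk1, the kinase that starts mitosis, read 96.5, 157 and 93.4 in KO_3M, against 15.3, 31.3 and 37.2 in Het_3M. Its older arrays read 101, 99.0 and 128 in KO_12M and 46.2, 37.8 and 43.1 in Het_12M. These groups too were apart at both ages, with rises of 1.58 ± 0.25 (adjusted p = 0.001) and 1.10 ± 0.25 (adjusted p = 0.0183). Without mouse 3 of KO_12M, or mouse 2 or mouse 3 of Het_12M, the 12 month rise of Cdk1 no longer passed. The cyclin Ccna2, which acts in S phase and at the entry to mitosis, stood at 0.47 and 0.36 in 1 probe set and at 0.93 and 0.99 in the other, without passing.

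Birc5, or survivin, a part of the chromosomal passenger complex with Aurkb, had the smallest adjusted p of the members at 12 months. It read 44.5, 58.9 and 44.5 in KO_3M, against 6.0, 7.0 and 8.4 in Het_3M, and 55.0, 41.9 and 60.6 in KO_12M, against 5.8, 6.7 and 4.4 in Het_12M. Every knockout array lay far above every heterozygous one. It rose by 1.49 ± 0.20 (adjusted p = 0.000293) and by 1.65 ± 0.20 (adjusted p = 0.000192). Mki67, the marker of cycling cells known as Ki-67, read 33.3, 55.2 and 45.9 in KO_3M, against 3.4, 25.5 and 10.3 in Het_3M. In KO_12M it read 36.0, 41.6 and 39.8, against 8.4, 13.2 and 13.8 in Het_12M. It rose by 1.12 ± 0.26 (adjusted p = 0.0132) and by 0.99 ± 0.26 (adjusted p = 0.0427), and the 3 month call was lost without mouse 2 of KO_3M or mouse 1 of Het_3M.

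**Figure D3:**
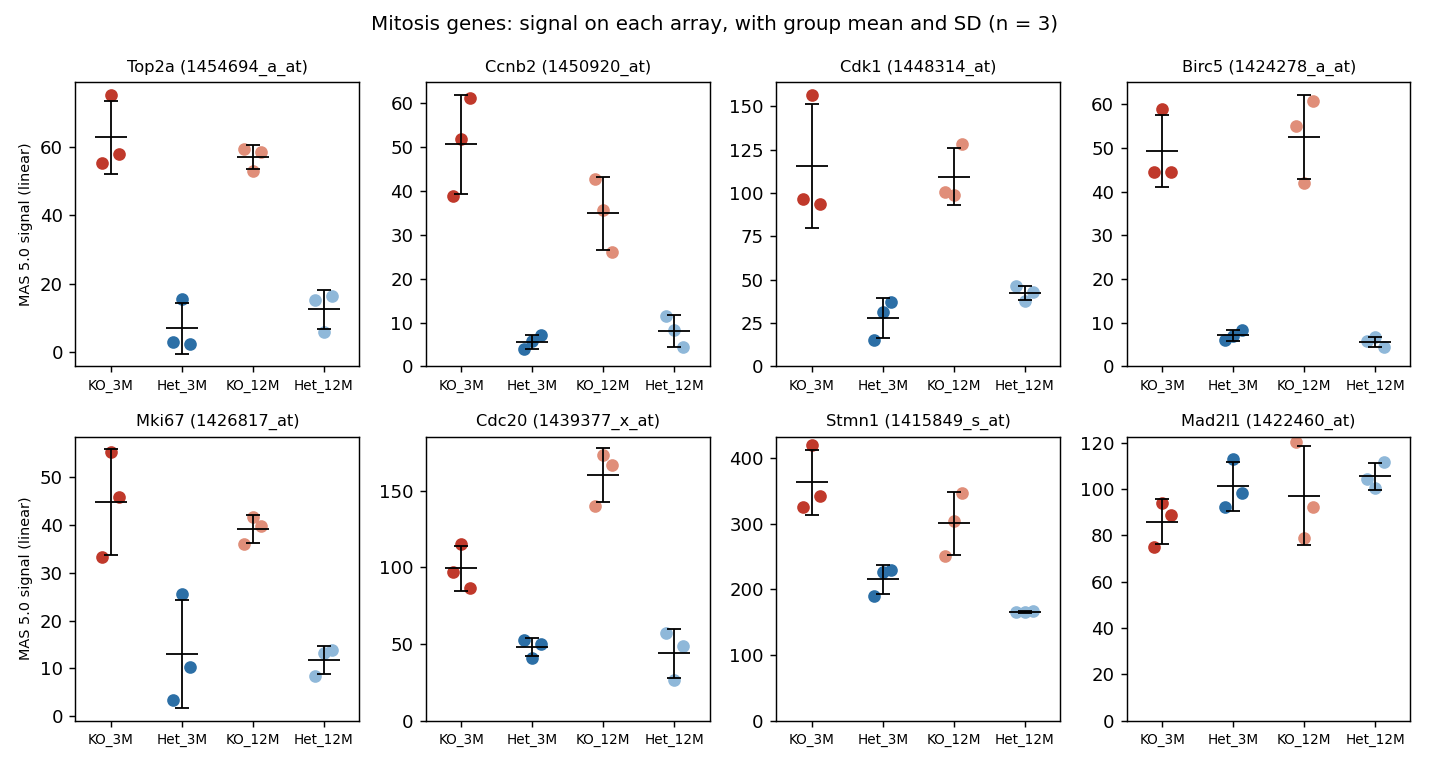
MAS 5.0 signal (linear axis) of 8 mitosis genes on each of the 12 arrays, by group, with the group mean and SD (n = 3 mice). Each gene is drawn by its probe set of smallest adjusted p (limma) over both knockout comparisons. For Cdc20 that is not the brightest probe set. Top2a, Ccnb2, Cdk1, Birc5, Mki67 and Stmn1 are higher in KO_3M and KO_12M than in their heterozygous groups, Cdc20 is highest in KO_12M, and the groups of Mad2l1 overlap.

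Cdc20, the activator of the anaphase-promoting complex, was the mitosis member that passed for 12 against 3 months in knockout livers. Its brightest probe set 1416664_at read 83.5, 87.7 and 50.2 in KO_3M, against 63.8, 63.3 and 66.7 in Het_3M, which overlapped. It read 148, 151 and 150.4 in KO_12M, against 55.5, 72.9 and 74.7 in Het_12M. The change was 0.13 ± 0.20 at 3 months, and 0.99 ± 0.20 at 12 months (adjusted p = 0.00797). A second probe set, 1439377_x_at, read 96.7, 115 and 86.3 in KO_3M and 52.5, 41.1 and 50.2 in Het_3M. In KO_12M it read 140.1, 173 and 167, and in Het_12M 57.0, 26.2 and 49.0. That one passed at both ages, with 0.85 ± 0.22 (adjusted p = 0.0201) and 1.58 ± 0.22 (adjusted p = 0.000598), though the 3 month call was lost without mouse 2 of KO_3M or mouse 2 of Het_3M. The third, 1439394_x_at, was dim at 3.7, 9.1 and 4.1 in KO_3M and 7.9, 5.0 and 4.1 in Het_3M. In KO_12M it read 41.8, 17.5 and 8.0, against 5.2, 5.5 and 7.5 in Het_12M. It stood at -0.01 and 0.71 and did not pass.

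Among the spindle genes, the kinase Plk1 rose at 3 months by 0.97 ± 0.26 (adjusted p = 0.0259) and stood at 0.93 ± 0.26 at 12 months (adjusted p = 0.0589). The kinesin Kif20a, which acts in the division of the cell body, rose by 0.73 ± 0.20 and by 0.93 ± 0.20. Stmn1, or stathmin, which destabilises microtubules, averaged 363 ± 50.1 in KO_3M and 215 ± 21.9 in Het_3M, and 301 ± 48.2 in KO_12M and 166 ± 1.4 in Het_12M, with rises of 0.71 ± 0.14 and 0.79 ± 0.14 in its bright probe set. Its dim probe set did not pass (0.09 and 0.29). Kif11, the kinesin that pushes the spindle poles apart, fell at 3 months in the dim probe set 1452315_at. That probe set read 5.6, 7.2 and 4.2 in KO_3M, against 20.0, 38.9 and 32.1 in Het_3M, and 10.2, 27.8 and 10 in KO_12M, against 18.1, 10.3 and 22.0 in Het_12M. The 3 month change was -1.08 ± 0.24 (adjusted p = 0.00955, -0.43 to -1.80 between offsets of 64 and 4), while the other 2 probe sets of Kif11 stood at -0.28 and -0.17.

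The remaining mitosis genes passed in neither knockout comparison. Aurka, the kinase of the spindle poles, stood at 0.78 and 0.71, and Aurkb, the kinase of the passenger complex, between -0.18 and 0.10 over its probe sets at both ages. Of the checkpoint genes, Bub1 ranged from -0.40 to 0.16 over its probe sets and ages, Bub1b stood at 0.26 and 0.03, and Mad2l1 at -0.20 and -0.12. The Cdk1-binding subunits Cks1b and Cks2 ranged from -0.02 to 0.31. The hyaluronan receptor Hmmr, a spindle protein too, ranged from -0.29 to 0.27, the ubiquitin enzyme Ube2c stood at 0.14 and 0.45, and the centrosome kinase Nek2 at -0.54 and 0.00. A p that misses the threshold does not show that these genes were unchanged.

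Promoter windows of Top2a, Ccnb2 and Cdk1 are shown as those of the mitosis members of largest rise at 3 months, with the same letters in capitals.
Top2a promoter (GRCm38.p6 chr11:99024140-99024439, minus strand): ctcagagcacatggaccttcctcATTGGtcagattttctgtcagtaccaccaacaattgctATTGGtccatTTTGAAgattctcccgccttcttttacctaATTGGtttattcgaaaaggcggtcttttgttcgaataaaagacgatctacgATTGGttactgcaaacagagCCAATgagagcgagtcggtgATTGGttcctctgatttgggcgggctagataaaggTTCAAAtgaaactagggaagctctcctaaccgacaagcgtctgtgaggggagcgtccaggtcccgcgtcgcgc
Ccnb2 promoter (GRCm38.p6 chr9:70421505-70421804, minus strand): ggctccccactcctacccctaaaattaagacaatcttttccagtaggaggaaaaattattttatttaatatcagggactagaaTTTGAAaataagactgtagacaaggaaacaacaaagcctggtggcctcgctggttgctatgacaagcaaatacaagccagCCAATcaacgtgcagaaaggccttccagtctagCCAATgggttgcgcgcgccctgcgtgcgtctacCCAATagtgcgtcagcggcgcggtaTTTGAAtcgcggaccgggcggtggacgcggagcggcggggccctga
Cdk1 promoter (GRCm38.p6 chr10:69352863-69353162, minus strand): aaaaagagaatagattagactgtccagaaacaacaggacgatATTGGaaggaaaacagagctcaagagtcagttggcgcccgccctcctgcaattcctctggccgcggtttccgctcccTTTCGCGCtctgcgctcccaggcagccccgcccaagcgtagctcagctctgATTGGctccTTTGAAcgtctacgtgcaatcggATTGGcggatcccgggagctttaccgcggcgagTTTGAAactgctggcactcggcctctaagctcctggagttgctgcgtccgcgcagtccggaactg

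Each of these windows held 2 CHR hexamers and at least 3 CCAAT boxes. Cdk1 also held an E2F octamer, 131 bases before the start, and was the only mitosis gene of the 17 with one (5.88%, against 4.07% of measured genes). The CHR hexamer was in 12 of 17 mitosis genes (70.6%, against 15.4%) and the CCAAT box in 15 of 17 (88.2%, against 42.3%). Genes with a CHR hexamer include Cks1b, Hmmr and Ube2c, which did not pass, and Birc5, whose window held neither the hexamer nor the box, rose at both ages.

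**Figure D4:**
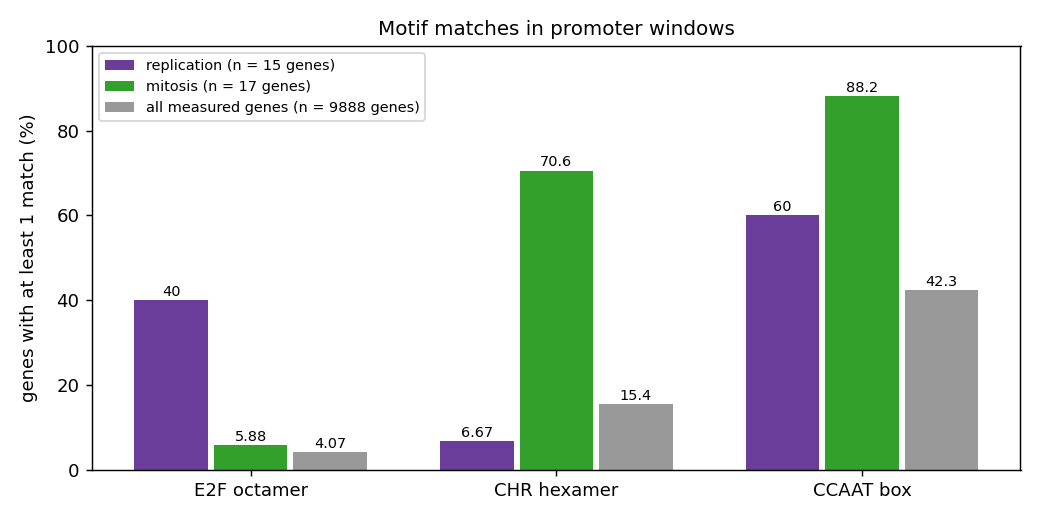
Share of genes (%, axis from 0) whose promoter window holds at least 1 match of the E2F octamer, the CHR hexamer or the CCAAT box, for 15 replication genes, 17 mitosis genes and 9888 measured genes. The octamer is at 40.0%, 5.88% and 4.07%, and the hexamer at 6.67%, 70.6% and 15.4%.

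Within the knockout livers, 12 months was set against 3 months. Some replication genes fell, led by Tk1 and Mcm6, and of the mitosis genes only Cdc20 passed. Of 34 replication probe sets 0 rose and 4 fell (of Tk1, Mcm6, Mcm5 and Mcm7), against 3.01% higher and 1.48% lower over all. Of 35 mitosis probe sets 1 rose, of Cdc20, and 0 fell. The medians were -0.17 and 0.22, against 0.15 over all probe sets. With median scaling 9 replication probe sets fell and 0 rose, and 2 mitosis probe sets fell and 0 rose. Over all 22626 probe sets, 1996 fell and 312 rose under that scaling. Of the 16 Mcm probe sets 12 were negative, 14 under median scaling and 15 under quantile normalization.

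The signals behind these falls are given above. Tk1 changed by -1.95 ± 0.26 (adjusted p = 0.00515), Mcm6 by -2.32 ± 0.34 in 1416251_at (adjusted p = 0.00531) and by -0.31 ± 0.29 in its other probe set, Mcm5 by -1.26 ± 0.31 (adjusted p = 0.0365) and Mcm7 by -0.79 ± 0.20 in 1438320_s_at (adjusted p = 0.0425). Cdc20 rose by 0.91 ± 0.20 in 1416664_at (adjusted p = 0.0217), and by 0.62 under median scaling, where it no longer passed. Mouse 3 of KO_12M was scanned in the session of the KO_3M arrays. Within that session, its log2 signal minus the KO_3M mean was -1.96 for Tk1, -2.50 for Mcm6, -0.61 for Mcm5, -0.95 for Mcm7 and 0.92 for Cdc20. The fall of Mcm5 was lost without mouse 1 or mouse 2 of either knockout group, mouse 3 of Het_3M or mouse 2 of Het_12M, and the count of replication falls was 2 in these cases apart from the last. The Cdc20 rise did not pass without mouse 3 of KO_3M or mouse 1 or mouse 3 of KO_12M. The count of mitosis calls, 1, became 0 without either of the first 2 of these, 2 without mouse 1 or mouse 2 of Het_12M and 3 without mouse 3 of Het_12M.

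In heterozygous livers 0 of 34 and 0 of 35 probe sets passed in limma for 12 against 3 months (0.203% higher and 0.0663% lower over all). At an unadjusted p under 0.05 it was 4 and 3, against 12.0% of all probe sets. The medians were 0.01 and 0.05. The comparison in knockout livers shares no mice with it.

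The interaction asked whether the knockout effect differed between the ages, as the effect at 12 months minus that at 3 months. In limma 0 members passed (0.0928% positive and 0.0972% negative over all), with 6 of 34 and 4 of 35 at an unadjusted p under 0.05, against 13.5% of all. Without mouse 2 of KO_12M, 1 replication probe set passed. Mcm6 came nearest at -2.30 ± 0.48 (adjusted p = 0.0665), then Tk1 at -1.65 ± 0.36 (adjusted p = 0.0793) and Mcm2 at -1.45 ± 0.37 (adjusted p = 0.109). For Mcm6 the adjusted p ran from 0.0309 to 0.187 over the alternatives computed, and for Tk1 from 0.0326 to 0.247. Medians were -0.24 for replication and 0.15 for mitosis probe sets, against 0.12 over all. Of the 16 Mcm probe sets 12 were negative, with all 16 under median scaling and 15 under quantile normalization.

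The members were also averaged per array. The mean log2 deviation of the 17 replication genes from their mean over the 12 arrays was 0.46, 0.72 and 0.42 in KO_3M, -0.23, -0.31 and -0.34 in Het_3M, 0.14, -0.02 and 0.19 in KO_12M and -0.34, -0.46 and -0.24 in Het_12M. For the 21 mitosis genes it was 0.02, 0.39 and 0.20 in KO_3M, -0.37, -0.26 and -0.26 in Het_3M, 0.33, 0.28 and 0.38 in KO_12M and -0.21, -0.32 and -0.18 in Het_12M. Replication genes stood highest in every KO_3M array, with KO_12M between these and the heterozygous arrays. Mitosis genes overlapped between KO_3M and KO_12M, and both lay above the heterozygous arrays. Mouse 2 of KO_3M was the highest array of its group in both and had the lowest actin 3′ to 5′ ratio of it, 3.24 against 6.40 and 5.11.

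**Figure D5:**
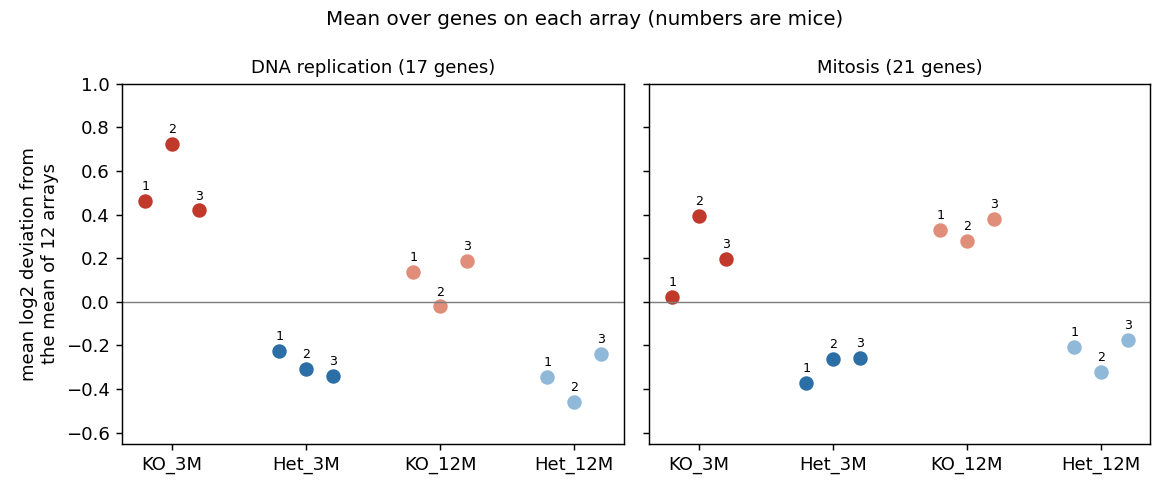
Mean log2 deviation of 17 replication genes (left) and 21 mitosis genes (right) from their mean over the 12 arrays, by brightest probe set, for each mouse (numbered). KO_3M arrays lie from 0.42 to 0.72 for replication and from 0.02 to 0.39 for mitosis, and all heterozygous arrays lie below 0.

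The scan sessions bear on every knockout call. All KO_3M arrays shared their session only with mouse 3 of KO_12M, and all Het_12M arrays theirs only with mouse 1 of Het_3M. Blocked values at 3 months and for age in knockout livers rest on the first of these linking arrays. Those at 12 months rest on the second, and the precision of both is limited by this. With session as a block, 3 of 34 replication probe sets rose at 3 months (of Mcm6 by 3.63, Pcna by 1.71 and Mcm2 by 2.21) and 1 of 35 mitosis probe sets did (Ccnb2 by 1.95), against 0.91% of all. At 12 months 0 of 34 and 0 of 35 passed (0.199% higher and 0.0884% lower over all), and for 12 against 3 months in knockout livers 2 replication probe sets fell, of Mcm6 and Tk1, against 1.18%. The medians under the block were 0.63 for replication and -0.02 for mitosis at 3 months, against -0.18 over all, and 0.45 and 0.25 at 12 months, against 0.01. Cdk1 at 12 months stood at 0.31 and Mcm5 at 3 months at 1.58 there. With the actin ratio as a covariate, 8 replication probe sets rose at 3 months and 2 at 12 months, and 5 and 6 mitosis probe sets did (3.39% and 2.67% higher over all). Its part in the results beyond these values was not tested.

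Other genes of the same processes were counted by brightest probe set from lists chosen with earlier results known. Of 40 further replication genes, 11 rose and 5 fell at 3 months, with a median of 0.11 (6.71% and 8.3% of all genes). Rpa1, which coats single-stranded DNA, had the smallest adjusted p and averaged 712 ± 67.2 in KO_3M and 355 ± 34.5 in Het_3M (0.97 ± 0.12, adjusted p = 0.000157). The licensing factor Cdt1 rose by 1.41 ± 0.17 and Pole, the catalytic subunit of polymerase epsilon, by 1.51 ± 0.20. Fen1, the flap endonuclease of the lagging strand, fell by 1.09 on the log2 scale (± 0.23), the polymerase delta subunit Pold1 by 0.91 (± 0.24) and the origin subunit Orc4 by 0.76 (± 0.21). At 12 months 1 of the 40 rose, Rpa1 by 0.46 ± 0.12, and 1 fell, the initiation factor Mcm10, which averaged 454 ± 98.4 in KO_12M and 1200 ± 59.3 in Het_12M (-1.39 ± 0.20, adjusted p = 0.000812), against 4.06% and 2.35% of all genes. For 12 against 3 months in knockout livers 2 rose and 7 fell (3.12% and 1.8% of all genes), Rpa1, Pole and Cdt1 among the falls.

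Of 42 further mitosis genes 4 rose and 3 fell at 3 months, with a median of 0.16 (6.71% and 8.3% of all genes). At 12 months 3 rose and 1 fell, with a median of 0.30 (4.06% and 2.35% of all genes). These counts are near those shares. The cytokinesis scaffold Anln averaged 26.5 ± 6.3 in KO_3M and 7.4 ± 2.2 in Het_3M, and 32.3 ± 3.1 in KO_12M and 6.4 ± 0.5 in Het_12M, and rose by 0.86 ± 0.17 and 1.11 ± 0.17. The condensin subunit Ncaph rose at 3 months by 1.17 ± 0.30 and cyclin Ccnf by 0.89 ± 0.24, whereas Dlgap5, Spc25 and Knstrn fell by 0.54, 0.80 and 1.08 on the log2 scale. At 12 months the kinetochore subunit Nuf2 rose by 1.06 ± 0.27 and the spindle protein Nusap1 by 0.82 ± 0.22, while the kinesin Kif2c fell by 0.95 (± 0.21).

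Most markers of macrophages and of stellate cells, though not all, rose with the knockout. Over all genes, 6.71% rose and 8.3% fell at 3 months and 4.06% and 2.35% at 12 months, beside which the counts of markers stand. Of 12 macrophage markers 9 rose and 2 (Adgre1 and Cd163) fell at 3 months and 7 rose and 1 (Cd163) fell at 12 months. Their summed signal was 4452 to 7670 in KO_3M against 2251 to 2316 in Het_3M, and 4769 to 5664 in KO_12M against 2343 to 2559 in Het_12M. Mouse 2 of KO_3M, highest for the members, was by summed signal also the highest of its group for macrophage markers. The same held for cholangiocyte, B and plasma cell and endothelial markers. That mouse was the lowest of its group for stellate cell and fibroblast, hepatocyte, neutrophil and erythroid markers. Of 10 stellate cell and fibroblast markers 7 rose at 3 months and 6 at 12 months, with sums of 3421 to 4369 in KO_3M against 1533 to 1677 in Het_3M, and 3175 to 3658 in KO_12M against 1545 to 2073 in Het_12M. Acta2 and Des passed at neither age, with -0.363 and -0.365 at 3 months and 0.141 and 0.356 at 12 months. Of 7 cholangiocyte markers 2 rose at 3 months, with sums of 348 to 358 in KO_3M against 113 to 151 in Het_3M, and 0 at 12 months, with 178 to 463 in KO_12M against 112 to 153 in Het_12M.

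Hepatocyte markers did not separate at 3 months, with 0 of 8 passing and sums of 43026 to 49165 in KO_3M against 45187 to 50268 in Het_3M. At 12 months 1 of 8, Ttc36, fell, and the sums were 28132 to 41855 in KO_12M against 42976 to 47968 in Het_12M. The lowest sum was that of mouse 3 of KO_12M, with 41855 and 40970 on the other arrays of its group. Of T and NK cell markers 0 of 11 rose and 1 fell at 3 months, of B and plasma cell markers 0 of 7 passed at either age, of neutrophil markers 0 of 8, of erythroid markers 1 of 6 rose at 3 months, and of endothelial markers 1 of 9 fell at 3 months. No marker lay below the 10th percentile of its array on all 12 arrays. Below the array median on all 12 lay 5 T and NK cell, 3 B and plasma cell and 3 cholangiocyte markers. The same held for 1 neutrophil, 1 erythroid and 1 endothelial marker, so part of these counts rests on dim signals. The part of each cell type in the rise of replication and mitosis genes was not tested.

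The mean standardised signal of the 10 mitosis genes that reached the array median on at least 3 arrays was correlated with other genes over the 12 arrays. Only non-member genes whose brightest probe set also reached the array median on at least 3 arrays were taken. Of the 42 further mitosis genes, 20 lay below that median on all 12 arrays and so were not among them. Kif4, Prc1, Pbk, Ncapd2 and Aspm reached it on fewer than 3 arrays and were left out too. The 5 genes of highest Pearson r were Itgb2 at 0.948, Sptssa at 0.942, Kctd17 at 0.942, Eid1 at 0.921 and Sdcbp at 0.921. The 12 arrays fall into 4 groups, which the correlation carries with it, and it is given as a description.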

How the data were processed

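Liver RNA of 12 mice was hybridised to Affymetrix MOE430A arrays. The authors extracted each deposited intensity, a linear signal, with MAS 5.0, per the series design text. It came already scaled, with a trimmed mean from 150.05 to 150.073 per array. The sources used here give no other setting, and the number of arrays limits precision. Replicates are separate mice, whose litters the labels do not give.

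Each array was brought to 1 trimmed mean (2% cut at each end), 16 was added and log2 taken. limma 3.58.1 in R 4.3.3 (lmFit, eBayes with an intensity trend) was fitted to all 22626 probe sets other than the 64 controls, as 4 group means (8 residual degrees of freedom), and the script was tested on simulated data. Symbols came from the platform table and were set by gene ID to RefSeq names (20364 of 20393 probe sets with a single symbol). The brightest probe set of a gene is that with the highest mean log2 signal. Tables and figures used Python 3.11.15, pandas 2.3.3, numpy 2.4.6 and matplotlib 3.10.9.

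Per-array values are given by a rule: in each comparison of genotypes up to 5 rises and 2 falls per gene group, up to 3 calls of smallest p in the others, and the probe sets of a gene where 1 passed and another had the opposite sign. Pcna was added after its values were seen. Members, lists and alternatives were chosen with earlier results of these data known. Scan sessions were taken as runs of scans with gaps of at most 29 minutes, and gaps between sessions were at least 42 minutes. The alternatives were other scalings, offsets of 4 and 64, a filter on low signals (array median on at least 3 arrays), 1 probe set per gene, no intensity trend, only the groups compared, a block by mouse number or scan session, the actin ratio as covariate, leaving out arrays and a 2-fold filter. Leaving out the 2 arrays of another fluidics script (mouse 1 of KO_3M and mouse 3 of KO_12M) was chosen after seeing the data. A fluidics communication error is recorded for mouse 2 of Het_3M and mouse 1 of Het_12M.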

Additional observations from a re-analysis of the deposited data

Results flagged for a closer look

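Tk1 stands out among the members because all 3 KO_3M arrays lay above the Het_3M arrays while all 3 KO_12M arrays lay below the Het_12M arrays. The 12 month log2 fold change, knockout against heterozygous, less the 3 month one was -1.65 ± 0.36. In limma's interaction test its adjusted p was 0.0793 over all probe sets, which does not pass. It passed under median scaling (adjusted p = 0.0326) and with the filter on low signals (adjusted p = 0.0391), and the largest adjusted p, with scan session as a block, was 0.247. Outside the members, the further replication gene Rfc5 likewise had its knockout arrays above the heterozygous ones at 3 months and below them at 12 months. Its interaction was -1.12 ± 0.29 (limma, adjusted p = 0.114).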

How the results depend on the processing

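For 3 months, counts of passing probe sets were 16 for replication and 11 for mitosis, for 12 months 6 and 9, for 12 against 3 months in knockout livers 4 and 1, and 0 for each in heterozygous livers and for the interaction. With 1 probe set per gene the 3 month replication count was 9. With scan session as a block the counts were 3 and 1 at 3 months, 0 and 0 at 12 months, and 2 and 0 for age in knockout livers. With the actin ratio they were 8 and 6 at 3 months, 2 for replication at 12 months, and 0 and 0 for age. The filter on low signals left 4 mitosis calls at 3 months and 5 at 12 months, as fewer probe sets were tested, and gave 1 replication call for the interaction. Median scaling gave 9 and 2 calls for age in knockout livers, with 2308 over all 22626 probe sets. It gave 2 replication calls for the interaction, with 178 over all. Quantile normalization gave 0 mitosis calls for age. Fitting only the groups compared gave 2 and 0 for age. Without the 2 arrays with another source age there were 6 mitosis calls at 3 months and 2 and 0 for age, and without the 2 of the other fluidics script 2 replication calls at 12 months and 0 mitosis calls for age. The 2-fold filter, which has no test, gave 7 mitosis probe sets for age in knockout livers and 6 and 1 in heterozygous livers. Dim probe sets are among the 7, such as Bub1 1424046_at, which averaged 1.87 in KO_3M and 4.47 in KO_12M. Where no share over all probe sets is given, a count describes the setting and is not a result about the members. Other causes were not tested.

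Mouse numbers did not pair the samples: deviations of same-numbered mice correlated between -0.15 and 0.14, and 3 of 12 arrays correlated best with their own number. The replicate block left 2 replication calls for age in knockout livers and moved no other count by over 1.5 times, while 4 of 41 named values no longer passed, Tk1 at 12 months among them.

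Leaving out 1 array at a time gave 12 to 16 replication and 6 to 11 mitosis calls at 3 months, 2 to 8 and 6 to 10 at 12 months, 2 to 4 and 0 to 3 for age in knockout livers, 0 in heterozygous livers, and 0 to 1 and 0 for the interaction.

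Signs were followed for the named values, where 4 that did not pass turned. Other members turned too: positive mitosis probe sets at 3 months numbered 17 with the session block, against 21. Mcm3 1426653_at at 3 months (0.07) read -0.061 with an offset of 4, -0.74 with the session block, -0.19 without the 2 arrays with another source age and -0.15 without the 2 of the other fluidics script, and from -0.15 to 0.50 with 1 array left out. Mcm7 1439269_x_at at 3 months read 0.042 with the session block. Cdc20 1439394_x_at at 3 months (-0.01) read 0.085 under quantile and 0.044 under median scaling, 0.94 with the session block, 0.13 and 0.056 without those pairs of arrays, and from -0.12 to 0.066 with 1 array left out. Top2a 1427724_at at 12 months ran from -0.11 to 0.073 with 1 array left out.

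Dim signals near the offset limit the sizes of the fold changes.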
